A study of Mus musculus with 8 samples.

Results

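The comparison described here is between intestinal crypts of a mouse group that lost Setdb1 in the epithelium, in the library titled VEMD8, and control crypts, in the library titled WT. RNA was sequenced once from each, so every group holds 1 library and no value carries an error. Genes were taken up when their mean over the 6 crypt libraries of the study was at least 1 FPKM, the unit of the deposited values (fragments scaled by transcript length and library size). This held for 10862 of 16958 genes with a value. The gene just inside this limit lay on it, and the gene just outside had a mean of 0.9983 FPKM. The size of a difference is the log2 ratio of VEMD8 to WT after adding 1 FPKM to both values, and a difference of 2-fold or more on that scale is called higher or lower. Since nothing could be tested, these words describe the 2 libraries and not the 2 genotypes.

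All crypts came from C57BL/6 mice labelled as 8 weeks old. The WT library has the genotype setdb1fl/fl, that is, both copies of the gene carry loxP sites. VEMD8 has the genotype setdb1 iIEC-KO, in which a recombinase under the Villin promoter, active throughout the gut epithelium, is switched on by tamoxifen. A single oral dose of tamoxifen, 800 mg/kg, was given to the Villin-CreERT2 mice and also to their WT littermates. The labels do not spell out VEMD, do not say how many mice a library holds, and give the tissue only as crypts of intestines, with no segment. Libraries of the same genotype titled VEMD2, VEMD3, VEMD4 and VEMD6, 1 of each, are used below only to show where VEMD8 stands among knockouts.

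SETDB1 is a methyltransferase that places repressive methyl marks on histone H3 lysine 9 and silences retroviral repeats and some genes. Crypts are the pockets of the gut lining in which stem cells divide and give rise to absorptive enterocytes and to the secretory lineages, the Paneth, goblet, enteroendocrine and tuft cells. Secretory and absorptive cells make large amounts of membrane and exported protein, and their endoplasmic reticulum answers unfolded protein through the sensors IRE1, ATF6 and PERK. ATF6 and the IRE1 product XBP1 switch on chaperone genes, while PERK and related kinases slow translation and raise ATF4, which switches on amino acid and stress genes.

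Setdb1 itself (gene 84505, chr3:95323525-95357202 on GRCm38) was at 9.42 FPKM in WT and 4.95 in VEMD8, a log2 ratio of -0.81. The other knockouts lay between 3.53 and 7.03 FPKM, so VEMD8 was neither the lowest nor the highest of them. A value for the whole gene says nothing about single exons. Depth, estimated from the steps that whole fragments leave in low FPKM values, was about 17100000 fragments in WT and 16300000 in VEMD8. On a transcript of 1 kb, 3 fragments then correspond to 0.175 FPKM in WT and 0.184 FPKM in VEMD8. The summed FPKM of VEMD8, 491879, was 84% of that of WT, 585501, and 35.5% of this gap lay in the alpha-defensin genes alone. The epithelial markers Epcam, at 1080.2 FPKM in WT and 699.5 in VEMD8, and Krt8, at 1923 FPKM in WT and 1748 in VEMD8, were high in both libraries. Defining genes of other tissues were near 0: the collagen gene Col1a1 was at 0.02 and 0.01 FPKM, the endothelial gene Cdh5 at 0.06 and 0.03, and the B cell gene Cd79a at 0.09 in both. The pan-leukocyte gene Ptprc was at 1.65 FPKM in WT and 1.45 in VEMD8. Some leukocyte genes stood well above 0: Gzma was at 85.9 FPKM in WT and 40.4 in VEMD8, and Gzmb at 29.8 and 16.8. The T cell gene Cd3g was at 6.41 FPKM in WT and 2.78 in VEMD8. Of 20 leukocyte markers tested, 18 were below WT and 2 above. The 4 Y-linked genes tested were present in both libraries with a median log2 ratio of -0.08, or 0.15 with equal sums.

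Of the 10862 genes, 474 (4.36%) were at least 2-fold higher in VEMD8 and 566 (5.21%) at least 2-fold lower. Counts of list members below are to be read beside these shares. At least 4-fold differences were found in 128 genes upward and 129 downward, and at least 16-fold differences in 18 and 25. Both extremes of abundance held more of them: 12% of genes with a mean of 1 to 5 FPKM and 12.7% of those at 100 FPKM or more were past 2-fold, against 8.02% of those between 20 and 100 FPKM. Among the higher genes, 112 were under 1 FPKM in WT, and among the lower genes 114 were under 1 FPKM in VEMD8. The median ratio over all tested genes was -0.06. Scaling both libraries to the same sum of FPKM moved that median to 0.16 and tipped the calls to 743 higher and 389 lower, that is from 45.6% to 65.6% higher, while scaling to the median gene gave 550 and 498. A ratio near 0 therefore has no certain sign, and signs that turned under equal sums are given beside each list below.

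**Figure D1:**
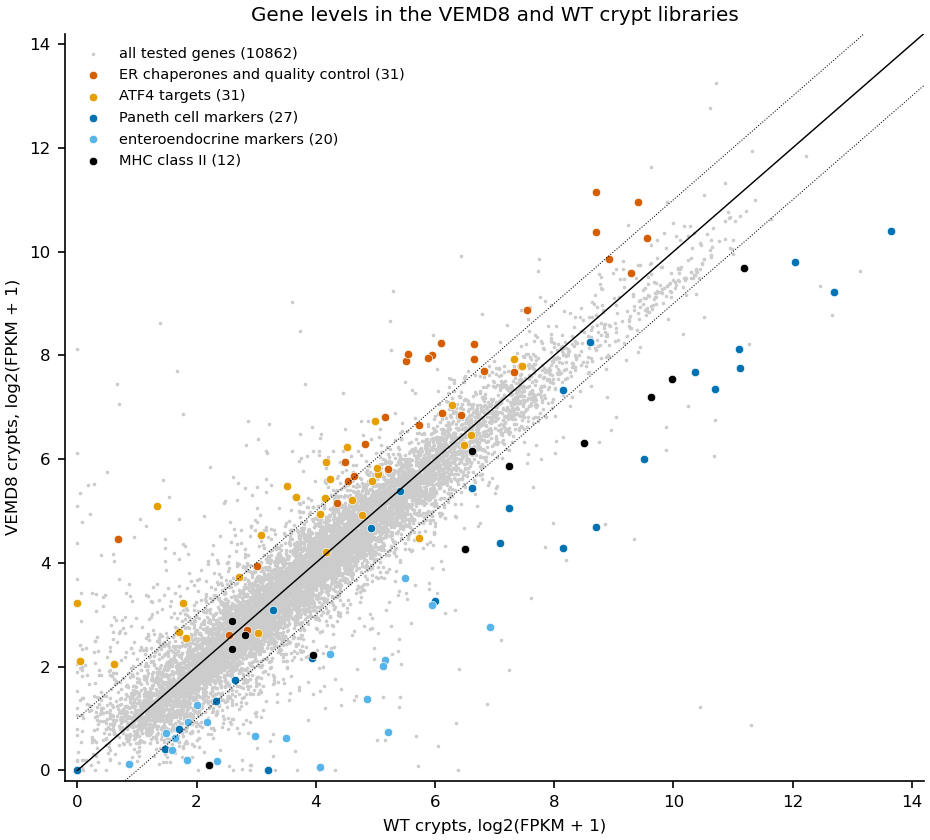
Level of each tested gene in the WT library (horizontal) and the VEMD8 library (vertical), both as log2 of FPKM plus 1, with 1 point per gene; the solid line marks equal levels and the dotted lines a 2-fold difference. Of the chaperone genes of the endoplasmic reticulum 17 of 31 and of the ATF4 targets 14 of 31 lie on or above the upper dotted line, while Paneth, enteroendocrine and MHC class II genes lie mostly below the lower one.

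Chaperone and quality control genes of the endoplasmic reticulum were higher in VEMD8 than in WT. Of 31 members tested, 17 were at least 2-fold higher and none lower, where 4.36% of all genes were higher and 5.21% lower. Their median log2 ratio was 1.04, against -0.06 over all genes. Derl3, under 1 FPKM in WT, passed the filter through the knockouts. With a mean of at least 5 FPKM 17 of 31 were higher. VEMD8 held the highest level of the 6 libraries for 27 of the 31, where it was highest for 10.2% of all genes. Below, the promoters of 6 of these genes are shown because they hold the endoplasmic reticulum stress element (ERSE), the composite site through which ATF6 is known to act. The RefSeq sequences of GRCm38.p6 run 5′ to 3′ over the 250 bases before the gene's start, and capitals mark each match to the ERSE letters, CCAAT and CCACG with 9 bases between them, on either strand.
Hspa5: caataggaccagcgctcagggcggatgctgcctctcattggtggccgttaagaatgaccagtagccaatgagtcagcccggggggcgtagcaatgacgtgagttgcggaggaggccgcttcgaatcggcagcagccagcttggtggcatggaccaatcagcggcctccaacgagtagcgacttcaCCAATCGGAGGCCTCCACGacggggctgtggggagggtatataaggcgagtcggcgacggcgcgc
Hsp90b1: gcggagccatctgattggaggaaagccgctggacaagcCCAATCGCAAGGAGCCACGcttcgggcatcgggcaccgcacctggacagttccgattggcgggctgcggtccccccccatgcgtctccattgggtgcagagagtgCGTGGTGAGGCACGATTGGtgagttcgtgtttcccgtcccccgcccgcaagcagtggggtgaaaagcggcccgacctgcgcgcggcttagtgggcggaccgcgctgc
Calr: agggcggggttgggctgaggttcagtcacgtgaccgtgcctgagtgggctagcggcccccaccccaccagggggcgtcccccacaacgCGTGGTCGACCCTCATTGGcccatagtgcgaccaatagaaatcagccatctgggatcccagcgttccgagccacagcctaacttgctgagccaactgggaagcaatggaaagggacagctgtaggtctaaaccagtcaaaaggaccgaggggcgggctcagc
Creld2: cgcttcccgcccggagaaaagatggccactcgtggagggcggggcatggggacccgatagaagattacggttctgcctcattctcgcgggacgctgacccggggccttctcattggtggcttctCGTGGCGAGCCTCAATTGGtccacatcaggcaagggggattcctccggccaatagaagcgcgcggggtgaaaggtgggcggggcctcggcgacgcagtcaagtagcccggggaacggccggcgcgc
Dnajc3: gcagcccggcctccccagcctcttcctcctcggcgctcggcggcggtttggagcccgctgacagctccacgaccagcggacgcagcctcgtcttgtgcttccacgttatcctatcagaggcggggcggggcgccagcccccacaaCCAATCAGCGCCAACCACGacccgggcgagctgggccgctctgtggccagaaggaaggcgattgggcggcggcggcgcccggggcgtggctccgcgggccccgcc
Derl3: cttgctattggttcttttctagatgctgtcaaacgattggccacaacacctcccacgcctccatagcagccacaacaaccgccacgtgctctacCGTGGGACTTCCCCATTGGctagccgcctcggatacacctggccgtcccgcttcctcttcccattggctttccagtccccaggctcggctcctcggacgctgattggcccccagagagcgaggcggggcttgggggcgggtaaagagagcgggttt

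The element lay 65 to 47 bases before the start of Hspa5 (chr2:34771840-34772089, plus strand) and 162 to 144 bases before that of Calr (chr8:84846932-84847181, minus strand). Hsp90b1 (chr10:86705445-86705694, minus strand) had 2 matches, the first 212 to 194 bases before its start. In Creld2 (chr15:88819396-88819645, plus strand) it lay 126 to 108 bases upstream, in Dnajc3 (chr14:118937682-118937931, plus strand) 105 to 87, and in Derl3 (chr10:75893148-75893397, plus strand) 156 to 138. Among 8804 tested genes with a promoter in the RefSeq table, only 15 (0.17%) had such a match, and 0.13% of all 27025 promoters did. It was present in 10 of the 372 higher genes (2.69%) and in 0 of the 442 lower genes. Of the 25 chaperone list members with a promoter, 9 held it: Calr, Canx, Creld2, Derl3, Dnajc3, Hsp90b1, Hspa5, Pdia6 and Syvn1. The other ERSE genes that were tested were Acacb, Alg12, Ero1b, Hnrnpa3, Pan2 and Xlr3a. Ero1b, the oxidase that feeds disulfide formation, was at 3.8 FPKM in WT and 16.9 in VEMD8, and Alg12, a mannosyltransferase of N-glycan assembly, at 8.64 FPKM in WT and 17.9 in VEMD8. Xlr3a had a log2 ratio of 2.13, from 0.69 FPKM in WT. Alg12, Acacb, Hnrnpa3 and Pan2 were within 2-fold, with log2 ratios of 0.97, 0.41, 0.07 and -0.58. The list member Canx, at 0.35, was also within 2-fold. A match describes the letters only and does not show that a factor was bound.

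Hspa5, which encodes the master chaperone BiP, was at 416 FPKM in WT and 2277 in VEMD8, against 704, 924, 742 and 1143 in VEMD2, VEMD3, VEMD4 and VEMD6. VEMD8 was the highest and WT the lowest of these, and the ratio of VEMD8 to WT was 2.45 on the log2 scale. Herpud1, a scaffold of the degradation complex in the membrane, was at 45.8 FPKM in WT and 260.4 in VEMD8, against 63.2, 83.02, 68.9 and 139.6 in VEMD2, VEMD3, VEMD4 and VEMD6, with the same order at both ends. Hyou1, a large HSP70 relative that exchanges nucleotides on BiP, was at 44.7 FPKM in WT and 236 in VEMD8, with 89.6 to 153 in the other knockouts. Pdia4, a disulfide isomerase, was at 67.7 FPKM in WT and 301 in VEMD8 with 106 to 194 in the other knockouts. Derl3, a channel component for export of misfolded proteins, was nearly silent in WT at 0.61 FPKM and at 21.1 in VEMD8, above the 9.52 of VEMD6. With 1 value per library, VEMD8 was the highest library for each of these 5 genes, as it was for 10.2% of all genes. VEMD6 was close for the list as a whole, with a median log2 ratio to WT of 0.90 against 1.04 in VEMD8.

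The large luminal chaperones differed by less on the log2 scale but from high levels. Hsp90b1, which encodes GRP94, was at 413 FPKM in WT and 1334 in VEMD8, a ratio of 1.69. Calreticulin, encoded by Calr, was at 674 FPKM in WT and 1999 in VEMD8, a ratio of 1.57. Creld2 and Manf, secreted when calcium in the reticulum falls, had ratios of 2.08 and 1.55. Sdf2l1, a partner of BiP, was at 61.2 FPKM in WT and 256 in VEMD8. The BiP cochaperones Dnajc3, Dnajb9 and Dnajb11 had ratios of 1.65, 1.46 and 1.28. For the degradation machinery, Sel1l and its ubiquitin ligase Syvn1 were at 1.46 and 1.04, and Edem1, which trims mannose from misfolded glycoproteins, at 1.04.

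The sensor genes differed less than these targets. Atf6 was at 7.05 FPKM in WT and 14.4 in VEMD8, a ratio of 0.94, just under 2-fold. Xbp1 was at 86.04 FPKM in WT and 114 in VEMD8, and a gene-level value does not separate its spliced from its unspliced form. Ern1, which encodes IRE1 alpha, was at 6.22 FPKM in WT and 5.5 in VEMD8, and Ern2, the form of mucus-making cells, at 4.82 FPKM in WT and 5.1 in VEMD8. Agr2, a disulfide isomerase of goblet cells that is on the same list, had a ratio of 0.29. With equal sums 23 of the 31 members were called higher.

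Targets of ATF4 and the integrated stress response were also higher, with 14 of the 31 members 2-fold or more higher, 1 lower and a median of 0.87. With a pseudocount of 5 FPKM 9 of the 31 were higher, and with equal sums 18. A mean of at least 5 FPKM gave 11 of 28. Because Stc2 and Slc7a11 were under 1 FPKM in WT and passed the filter through the knockouts, this count is a description only. Chac1, which degrades glutathione, was at 1.53 FPKM in WT and 33.4 in VEMD8, against 2, 1.71, 4.2 and 6.8 in VEMD2, VEMD3, VEMD4 and VEMD6. Its level in VEMD8 stood well above all 5 others. Atf5, a transcription factor of the same pathway, was at 16.97 FPKM in WT and 60.3 in VEMD8 with 20.9 to 28.3 in the other knockouts. Ddit3, which encodes the death-linked factor CHOP, was at 11.8 FPKM in WT and 37.8 in VEMD8 with 11.7 to 20.9 in the other knockouts. Trib3, a pseudokinase induced by ATF4 and CHOP, was at 2.41 FPKM in WT and 8.41 in VEMD8, and the other knockouts did not pass 2.98. In each of these 4 genes VEMD8 held the highest value of the 6 libraries.

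Genes of amino acid supply were part of this group. Asns, asparagine synthetase, was at 30.9 FPKM in WT and 106 in VEMD8, with 50.2 to 58.6 in the other knockouts. In serine synthesis, Phgdh, Psat1 and Psph had ratios of 1.38, 1.97 and 1.01. Psat1 was at 10.4 FPKM in WT and 43.7 in VEMD8, which the 41.1 FPKM of VEMD4 nearly reached. The cystine carrier Slc7a11 was at 0.03 FPKM in WT and 3.31 in VEMD8. Its WT value lies under the level of 3 fragments on a transcript of 1 kb. That level falls for longer transcripts and was not scaled to this gene. The neutral amino acid carrier Slc7a5 was at 7.47 FPKM in WT and 22.4 in VEMD8. Stc2, a secreted glycoprotein, was listed at 0 in WT while VEMD8 had 8.42 FPKM. Eif4ebp1, a brake on cap-dependent translation, was at 22 FPKM in WT and 74.3 in VEMD8. The mRNA of Atf4 itself, whose protein is mostly set by translation, was at 159.9 FPKM in WT and 243 in VEMD8, above the 172 FPKM of the next knockout.

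The group was not uniform. Cth, the cystathionine lyase that makes cysteine, was the lower member, at 52.1 FPKM in WT and 21.3 in VEMD8. Atf3 was at 17.1 FPKM in WT and 17.6 in VEMD8 and Cebpb at 7.2 FPKM in WT and 5.27 in VEMD8, both within 2-fold, and the aminoacyl-tRNA synthetase genes Aars, Gars, Sars and Mars1 lay between 0.61 and 0.80. The core of the ATF4 response element, TGATGNAA, searched on both strands in the same 250 bases, was found in 7 of 26 list members with a promoter (26.9%) and in 2.39% of tested genes. It was in 14 of 372 higher genes (3.76%) and 8 of 442 lower genes (1.81%). Of the 7 members, Chac1, Asns and Slc7a11 were higher, while Aars, Gars, Atf3 and Nupr1, the last at 29.5 FPKM in WT and 24.6 in VEMD8, were within 2-fold. The promoters of Chac1 (chr2:119350992-119351241, plus strand) and Asns (chr6:7693210-7693459, minus strand) are shown as examples of higher genes that hold it, with that core in capitals at 193 to 186 and 23 to 16 bases before the start.
Chac1: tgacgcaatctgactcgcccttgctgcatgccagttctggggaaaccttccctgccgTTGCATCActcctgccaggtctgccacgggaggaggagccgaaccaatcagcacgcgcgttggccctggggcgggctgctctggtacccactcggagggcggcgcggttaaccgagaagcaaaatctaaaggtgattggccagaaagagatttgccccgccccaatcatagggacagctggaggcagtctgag
Asns: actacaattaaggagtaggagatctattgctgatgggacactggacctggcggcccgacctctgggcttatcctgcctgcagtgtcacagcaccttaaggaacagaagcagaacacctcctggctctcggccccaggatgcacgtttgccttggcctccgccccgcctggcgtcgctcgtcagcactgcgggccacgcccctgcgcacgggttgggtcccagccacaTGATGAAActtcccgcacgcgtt

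**Figure D2:**
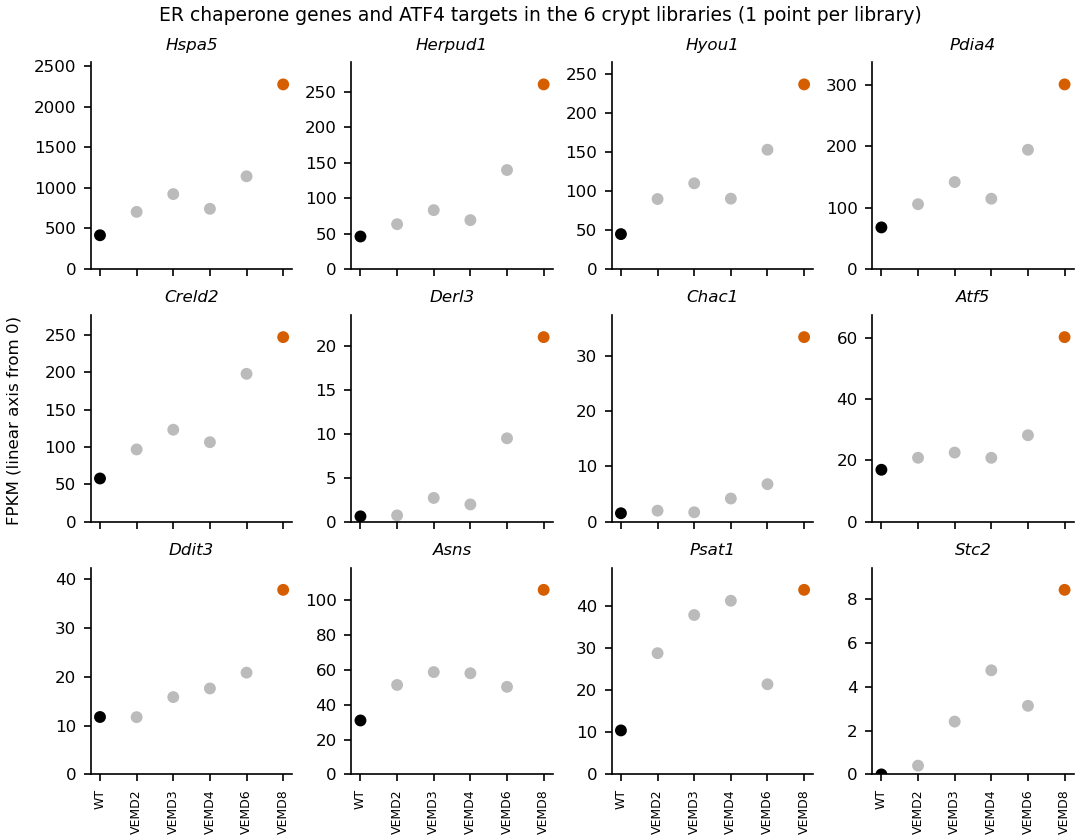
FPKM (vertical, linear axis from 0) of 6 chaperone and quality control genes and 6 ATF4 targets in each crypt library (horizontal), with 1 point per library, WT in black, VEMD8 in orange and the other knockouts in grey. VEMD8 is the highest of the 6 libraries in all 12 panels, from 2277 FPKM for Hspa5 down to 8.42 FPKM for Stc2.

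Markers of the secretory lineages were lower in VEMD8. None of 27 Paneth cell markers was higher and 17 were at least 2-fold lower, with a median of -2.18. Of 20 enteroendocrine markers 16 were lower, with a median of -2.07, and of 23 goblet markers 13 were lower and 1 higher, with a median of -1.03. In bulk RNA such as this, fewer cells of a type and less RNA per cell cannot be told apart. The 5 tuft cell markers tested had a median of 0.17, which turned to -0.25 without the filter on level.

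Paneth cells secrete antimicrobial proteins at the crypt base. Lyz1, lysozyme, was at 4233 FPKM in WT and 896 in VEMD8, against 6844, 4289, 1875 and 489.9 in VEMD2, VEMD3, VEMD4 and VEMD6. VEMD6 was lower still, so VEMD8 was not the lowest library. Ang4, a microbicidal ribonuclease, was at 724 FPKM in WT and 63.03 in VEMD8 with 31.3 to 1099 in the other knockouts, and the lectin Itln1 at 2199.6 FPKM in WT and 278 in VEMD8. Mmp7, the protease that activates defensins, had a ratio of -2.18. Summed over the alpha-defensin genes, which are near copies whose single values are uncertain, FPKM came to 37081 in WT and 3807 in VEMD8, and to 51854, 23056, 7939 and 3056 in the libraries VEMD2, VEMD3, VEMD4 and VEMD6. Of 25 tested alpha-defensin genes 19 were at least 2-fold lower and 1 higher, with a median of -3.22. The transcription factor Sox9, which Paneth and stem cells share, was at 8.74 FPKM in WT and 7.58 in VEMD8, and the lipase relative Pnliprp2 at 41.8 FPKM in WT and 40.7 in VEMD8, both within 2-fold.

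In enteroendocrine cells, which release gut hormones, VEMD8 was the lowest of the 6 libraries for 14 of the 20 markers, where it was lowest for 9.6% of all genes. Gip, the incretin of the upper gut, was at 121 FPKM in WT and 5.84 in VEMD8, against 133, 228, 125 and 29.2 in VEMD2, VEMD3, VEMD4 and VEMD6. Sst, somatostatin, was at 28.1 FPKM in WT and 1.59 in VEMD8 with 7.5 to 46.9 in the other knockouts. The granins Chga and Chgb were at 34.8 FPKM in WT and 3.39 in VEMD8 and at 60.5 FPKM in WT and 8.16 in VEMD8. Cck, cholecystokinin, was at 33.9 FPKM in WT and 3.02 in VEMD8, and Gcg, proglucagon, at 35.9 FPKM in WT and 0.67 in VEMD8. VEMD8 therefore lay below every other library for Gip, Sst, Chga, Chgb, Cck and Gcg. The fate regulators Neurog3 and Neurod1 were low in both libraries, at 2.63 FPKM in WT and 0.91 in VEMD8 and at 2 FPKM in WT and 0.32 in VEMD8.

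Goblet cells make mucus. The lectin Zg16 was at 1659 FPKM in WT and 107 in VEMD8, a ratio of -3.94, and the trefoil peptide Tff3 at 1462 FPKM in WT and 425 in VEMD8, a ratio of -1.78. Clca1, a mucus-processing protease, had a ratio of -2.18, and Spink4 a ratio of -1.75. By contrast Muc2, the main mucin, was at 104 FPKM in WT and 77.5 in VEMD8, and the lineage factor Spdef at 13.5 FPKM in WT and 10.2 in VEMD8, neither 2-fold lower. Atoh1, which commits cells to the secretory fate, was at 10.7 FPKM in WT and 4.5 in VEMD8. Retnlb, a bactericidal protein of goblet cells, was the exception, at 0.41 FPKM in WT and 52.8 in VEMD8, against 0.09, 3.1, 28.8 and 1.78 in VEMD2, VEMD3, VEMD4 and VEMD6. VEMD8 was the highest library for Retnlb and VEMD4 the next.

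Genes of defence at the mucosal surface divided. Of 26 tested genes 9 were 2-fold or more higher and 5 lower, with a median of 0.50, and VEMD8 held the highest level for 8. Over all genes 4.36% were higher and 5.21% lower, and VEMD8 was highest for 10.2%. Reg3b, a C-type lectin that binds bacterial wall sugars, was at 1687 FPKM in WT and 9734 in VEMD8, against 525, 434, 2051 and 389 in VEMD2, VEMD3, VEMD4 and VEMD6. Reg3g, its close relative, was at 1571 FPKM in WT and 6988 in VEMD8, against 794, 1007, 2908 and 677 in VEMD2, VEMD3, VEMD4 and VEMD6. Both stood above every other library, and the reads of these 2 similar genes may be hard to assign, but their sum also went from 3257 in WT to 16722 in VEMD8, with 4959 as the next highest. Reg1 was at 32.8 FPKM in WT and 94.5 in VEMD8, with only 4.01 to 18.6 in the other knockouts. In contrast to these, Reg3a, another family member, was at 33.9 FPKM in WT and 14.23 in VEMD8, and Reg4, a more distant member found in secretory cells, at 97.3 FPKM in WT and 42.5 in VEMD8.

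Fut2, the fucosyltransferase that feeds gut microbes with surface fucose, was at 1.08 FPKM in WT and 27.9 in VEMD8, against 2.09, 7.32, 22.6 and 6.45 in VEMD2, VEMD3, VEMD4 and VEMD6. Duoxa2, the maturation factor of the peroxide-making oxidase Duox2, was at 23.7 FPKM in WT and 52.9 in VEMD8, and Duox2 at 18.8 FPKM in WT and 37.97 in VEMD8, a ratio of 0.98. Lcn2, the siderophore trap, was low throughout at 2.97 FPKM in WT and 7.01 in VEMD8. The 5 lower members of this list were Itln1, Mptx1, Lyz1, Reg3a and Reg4, of which the first 3 and Reg4 are also Paneth markers here. Pigr, which carries antibodies across the epithelium, had a ratio of -0.81.

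Of the tested signalling proteins, 6 of 23 chemokines, cytokines and alarmins were higher and 2 lower. Ccl20, which draws CCR6-bearing lymphocytes, was at 4.57 FPKM in WT and 35.7 in VEMD8, against 0.43, 1.23, 2.49 and 14.1 in VEMD2, VEMD3, VEMD4 and VEMD6. Il18, an epithelial cytokine activated by inflammasomes, was at 15.6 FPKM in WT and 67.02 in VEMD8 with 14.1 to 32.7 in the other knockouts. VEMD8 was the highest library for both. Il33, a nuclear alarmin, was at 4.89 FPKM in WT and 26.6 in VEMD8, within the range of the other knockouts. Tnf and its negative regulator Tnfaip3 were at 1.19 FPKM in WT and 3.76 in VEMD8 and at 7.64 FPKM in WT and 19.2 in VEMD8. Among the lower members were Tnfsf10, the death ligand TRAIL, at 29.9 FPKM in WT and 5.72 in VEMD8, and Il15, a survival factor of intraepithelial lymphocytes, at 6.22 FPKM in WT and 2.1 in VEMD8.

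**Figure D3:**
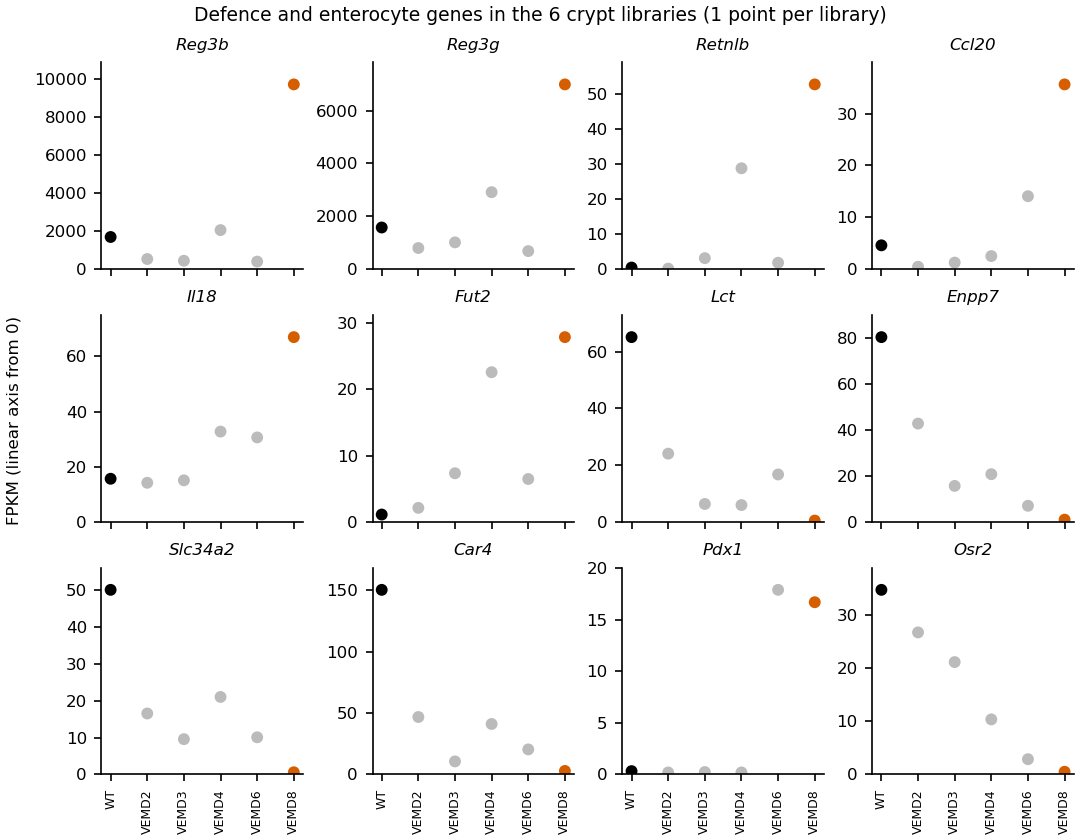
FPKM (vertical, linear axis from 0) of 6 defence genes, 4 enterocyte genes and the regional transcription factors Pdx1 and Osr2 in each crypt library (horizontal), with 1 point per library, WT in black, VEMD8 in orange and the other knockouts in grey. VEMD8 is the highest library for Reg3b, Reg3g, Retnlb, Ccl20, Il18 and Fut2 and the lowest for Lct, Enpp7, Slc34a2, Car4 and Osr2.

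Interferon-responsive genes divided by class. Antiviral genes of the type I and III response were somewhat higher, with 7 of 39 at least 2-fold higher, 1 lower and a median of 0.53. GTPases and regulators of the interferon gamma response were lower, with 16 of 24 at least 2-fold lower, 3 higher and a median of -1.20. VEMD8 was the lowest of the 6 libraries for 15 of the 24, where it was lowest for 9.6% of all genes. MHC class II genes were lower in 8 of 12, with a median of -1.60 and none higher. Leukocyte markers were lower alongside: their sum over 29 measured genes was 161 FPKM in WT and 90.8 in VEMD8, with 128 to 220 in the other knockouts. VEMD8 was lowest for 11 of the 20 tested, beside the same 9.6% of all genes. Of these 20, only Gzma was 2-fold lower and only Ly6g 2-fold higher, and with equal sums none was lower. Their part in the interferon and MHC differences was not tested.

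Of the antiviral genes, Oas2, which makes the RNase L activator 2-5A, was at 1.35 FPKM in WT and 8.6 in VEMD8, against 4.79, 13.8, 43.8 and 2.06 in VEMD2, VEMD3, VEMD4 and VEMD6. Rsad2, the antiviral enzyme viperin, was at 6.54 FPKM in WT and 24.9 in VEMD8, against 4.73, 10.5, 75.5 and 24.9 in VEMD2, VEMD3, VEMD4 and VEMD6. Oasl1, a relative of the OAS sensors that restrains Irf7, was at 39.3 FPKM in WT and 118 in VEMD8. In all 3 VEMD4 was the highest library, and VEMD8 was nearer to WT than VEMD4 was. Ifit2 was at 7.85 FPKM in WT and 4.62 in VEMD8 and the restriction factor Samhd1 at 51.3 FPKM in WT and 29.2 in VEMD8, both lower within 2-fold.

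Among the interferon gamma genes, Gbp2, a guanylate-binding protein that attacks intracellular pathogens, was at 16.8 FPKM in WT and 1.3 in VEMD8, against 14.99, 9.46, 15.1 and 7.03 in VEMD2, VEMD3, VEMD4 and VEMD6. Iigp1, an immunity-related GTPase, was at 30.3 FPKM in WT and 3.46 in VEMD8, against 45.2, 19.9, 16.4 and 16.5 in VEMD2, VEMD3, VEMD4 and VEMD6. Ido1, which degrades tryptophan, was at 41.1 FPKM in WT and 4.79 in VEMD8 with 17.7 to 62.7 in the other knockouts. Tgtp1 and Tgtp2, near copies whose reads may be split between them, summed to 82.9 FPKM in WT and 4.51 in VEMD8, with 20.4 to 109 in the other knockouts. For these genes VEMD8 lay below all 5 other libraries. The larger GTPases Igtp and Irgm1 were at 258 FPKM in WT and 68.2 in VEMD8 and at 117 FPKM in WT and 44.1 in VEMD8. Irf1, the transcription factor that opens this response, was at 229 FPKM in WT and 112 in VEMD8, and Irf8 at 124 FPKM in WT and 48.9 in VEMD8. The relatives Gbp9, Gbp4 and Gbp10 went the other way, with ratios of 2.59, 2.21 and 1.84, and they belong to a cluster of similar genes.

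The interferon-stimulated response element, searched on both strands as GAAA, 2 further bases and GAAA again, was found in 10 of 14 interferon gamma genes with a promoter (71.4%), in 12 of 27 antiviral genes (44.4%) and in 3.36% of tested genes. It was present in 40 of 442 lower genes (9.05%) and 19 of 372 higher genes (5.11%), so both directions held it more often than all tested genes. The promoters of Rsad2 (chr12:26456453-26456702, minus strand) and Gbp2 (chr3:142620413-142620662, plus strand) are shown because these genes differed from WT in opposite directions while both hold the element, in capitals, at 120 to 111 and at 59 to 50 bases before the start.
Rsad2: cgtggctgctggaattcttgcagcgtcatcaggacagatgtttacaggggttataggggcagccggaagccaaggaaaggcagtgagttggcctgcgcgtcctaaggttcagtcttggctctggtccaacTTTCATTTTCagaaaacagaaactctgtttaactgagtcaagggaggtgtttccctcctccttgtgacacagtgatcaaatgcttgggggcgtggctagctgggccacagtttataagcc
Gbp2: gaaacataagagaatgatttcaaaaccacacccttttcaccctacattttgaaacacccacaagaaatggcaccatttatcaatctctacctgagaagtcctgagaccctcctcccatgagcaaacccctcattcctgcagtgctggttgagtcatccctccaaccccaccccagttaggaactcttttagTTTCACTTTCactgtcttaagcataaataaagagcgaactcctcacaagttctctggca

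The class II genes present peptides to helper T cells. H2-Ab1 and H2-Aa, the chains of the I-A molecule, were at 1005 FPKM in WT and 186 in VEMD8 and at 787 FPKM in WT and 146 in VEMD8. The other knockouts lay between 310.4 and 689 FPKM for H2-Ab1, all above VEMD8. Cd74, the invariant chain, was at 2319 FPKM in WT and 826 in VEMD8, and Ciita, the master activator of the class, at 14.4 FPKM in WT and 3.7 in VEMD8. The structural activators Rfx5, Rfxap and Rfxank were within 2-fold, with ratios from -0.25 to 0.29.

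For class I presentation 8 of 23 tested members were lower and 1 higher, with a median of -0.84, but with equal sums only 2 were lower. The immunoproteasome subunits Psmb8, Psmb9 and Psmb10 had ratios of -1.22, -1.12 and -1.24. B2m, the light chain, was at 2041 FPKM in WT and 989 in VEMD8, and the heavy chains H2-K1 and H2-D1 had ratios of -0.84 and -0.42. The higher member was Calr, the chaperone already described. Sensors of nucleic acids had 1 of 19 members higher and none lower, with a median of 0.18, where 4.36% of all genes were higher. The higher member was Sting1, the adaptor for cytosolic DNA, at 2.99 FPKM in WT and 8.55 in VEMD8.

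**Figure D4:**
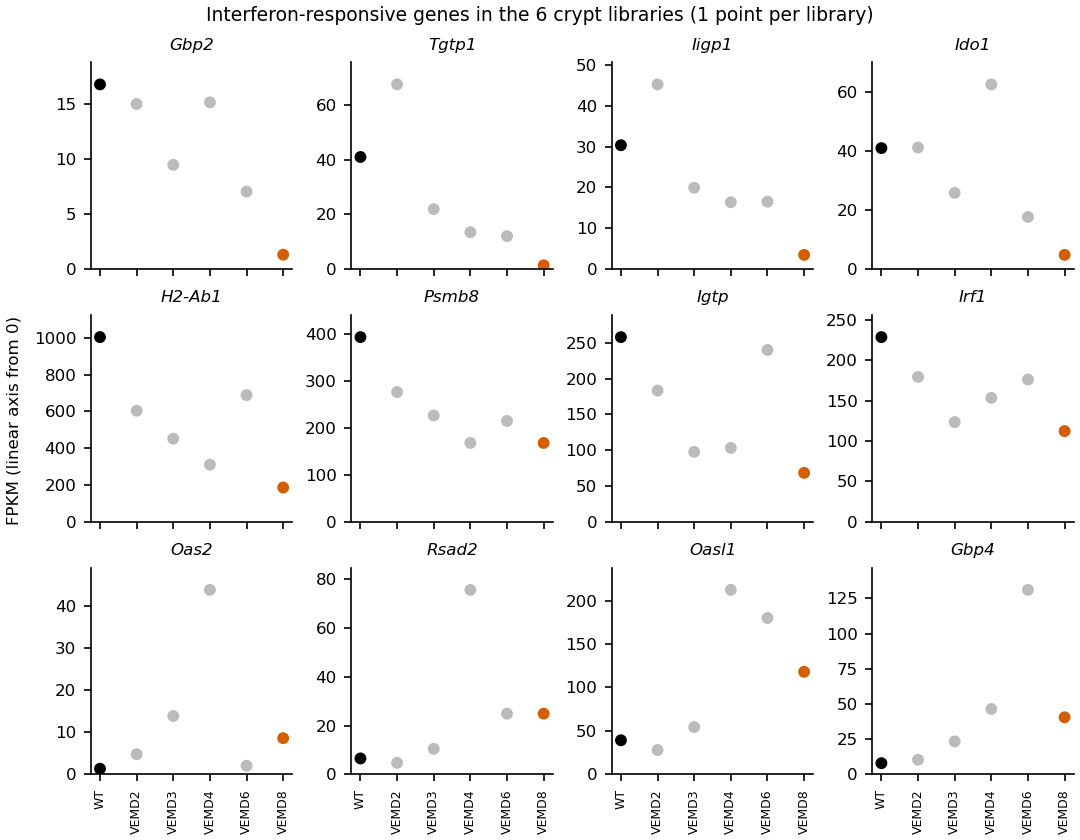
FPKM (vertical, linear axis from 0) of 12 interferon-responsive genes in each crypt library (horizontal), with 1 point per library, WT in black, VEMD8 in orange and the other knockouts in grey. VEMD8 is the lowest library for Gbp2, Tgtp1, Iigp1, Ido1, H2-Ab1, Igtp and Irf1 and, narrowly, for Psmb8, whereas Oas2, Rsad2, Oasl1 and Gbp4 lie above WT and below the highest knockout.

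Absorptive genes showed no common direction. Of 29 enterocyte markers 2 were higher and 6 lower, with a median of -0.19, or 0.06 with equal sums. Brush border hydrolases were more often lower, 8 of 22 against 2 higher, with a median of -0.62. Genes of microvillus structure were nearly all within 2-fold, with 1 of 20 lower, none higher and a median of 0.17. Vil1, villin, the actin bundler whose promoter drives the recombinase, was at 575 FPKM in WT and 637 in VEMD8.

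Lct, lactase, was at 65.1 FPKM in WT and 0.39 in VEMD8, against 24.01, 6.25, 5.87 and 16.7 in VEMD2, VEMD3, VEMD4 and VEMD6. Enpp7, the alkaline sphingomyelinase that digests milk and membrane lipid, was at 80.4 FPKM in WT and 0.89 in VEMD8, against 42.8, 15.6, 20.7 and 6.94 in VEMD2, VEMD3, VEMD4 and VEMD6. Naaladl1, a brush border peptidase, was at 84.1 FPKM in WT and 2.87 in VEMD8 with 15.2 to 109 in the other knockouts. In these 3 genes VEMD8 was the lowest of the 6 libraries. Treh, trehalase, and Asah2, neutral ceramidase, had ratios of -2.40 and -2.60. Other hydrolases of the same membrane were near WT: Sis, sucrase-isomaltase, was at 170.4 FPKM in WT and 185 in VEMD8, Mgam, maltase-glucoamylase, at 188 FPKM in WT and 224 in VEMD8, and the aminopeptidase Anpep at 1015 FPKM in WT and 1496 in VEMD8. Alpi, alkaline phosphatase, was higher, at 214 FPKM in WT and 925 in VEMD8, against 61.96, 43.7, 148 and 1585 in VEMD2, VEMD3, VEMD4 and VEMD6. Its near copy Akp3 was at 0.59 FPKM in WT and 173 in VEMD8, and the sum of both came to 214.5 FPKM in WT and 1098 in VEMD8.

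Regional identity genes were mixed. Pdx1, a transcription factor of the duodenum, was at 0.32 FPKM in WT and 16.7 in VEMD8, against 0.19, 0.23, 0.19 and 17.9 in VEMD2, VEMD3, VEMD4 and VEMD6, so only VEMD6 and VEMD8 expressed it above 1 FPKM. Slc40a1, the iron exporter ferroportin of the proximal gut, was at 1.77 FPKM in WT and 20.9 in VEMD8, and Onecut2 at 6.03 FPKM in WT and 16.4 in VEMD8. Osr2, a transcription factor placed here with ileum genes, was at 34.8 FPKM in WT and 0.5 in VEMD8, against 26.8, 21.2, 10.4 and 2.87 in VEMD2, VEMD3, VEMD4 and VEMD6. Of 18 proximal genes 4 were higher and 5 lower, with a median of 0.17. Of 16 ileum and bile acid genes 2 were higher and 6 lower, with a median of -0.57. The higher members were Abcc2, at 12.1 FPKM in WT and 31.2 in VEMD8, and Tmprss15, at 5.42 FPKM in WT and 15.0 in VEMD8. Tmprss15 also stands among the brush border hydrolases here. It was at 0.1, 0.2, 0.78 and 29.7 FPKM in VEMD2, VEMD3, VEMD4 and VEMD6. The list is thus not one of ileum genes alone. The colon genes had 3 higher and 3 lower of 12. Cdx1 and Cdx2, factors that set intestinal identity, were at 99.1 FPKM in WT and 52.8 in VEMD8 and at 108 FPKM in WT and 55.7 in VEMD8, just under 2-fold lower. A separate list of 31 tested intestinal transcription factors, which leaves out Pdx1, Onecut2 and Osr2, had no member called in either direction.

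Several transporters were far lower. Slc34a2, a sodium phosphate carrier, was at 50.1 FPKM in WT and 0.58 in VEMD8, against 16.5, 9.57, 21.03 and 10.1 in VEMD2, VEMD3, VEMD4 and VEMD6. Car4, the membrane carbonic anhydrase, was at 150.5 FPKM in WT and 2.84 in VEMD8 with 10.6 to 46.8 in the other knockouts. VEMD8 lay below every other library for both. Slc6a20a, the imino acid carrier, and Slc1a1, the glutamate carrier, had ratios of -2.51 and -2.11, and the proton-coupled carrier Slc36a1 one of -1.90. The main uptake carriers were near WT, with the sodium glucose carrier Slc5a1 at 283 FPKM in WT and 256 in VEMD8 and the peptide carrier Slc15a1 at 69.3 FPKM in WT and 52.2 in VEMD8. Slc2a2, the basolateral glucose carrier GLUT2, and Slc9a3, the sodium proton exchanger NHE3, were higher, with ratios of 1.29 and 1.47. Over 24 ion transporters and carbonic anhydrases 2 were higher and 5 lower, with a median of -0.01, or 0.24 with equal sums and 0.065 after scaling to the median gene.

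Metal and vitamin uptake genes had 7 of 27 members higher and 2 lower, with a median of 0.47. Besides Slc40a1, they included the ferroxidase Heph at 39.3 FPKM in WT and 81.5 in VEMD8, the heme oxygenase Hmox1 at 0.46 FPKM in WT and 3.96 in VEMD8 and the metallothionein Mt2 at 229 FPKM in WT and 531 in VEMD8. The lower members were S100g, the vitamin D dependent calcium binder, at 18.8 FPKM in WT and 7.67 in VEMD8, and the zinc carrier Slc39a5 at 97.5 FPKM in WT and 41.3 in VEMD8. The vitamin D receptor gene Vdr had a ratio of -0.95.

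In fat handling, Cd36, a fatty acid receptor, was at 7.09 FPKM in WT and 0.35 in VEMD8, and the other knockouts were as low, at 0.21 to 0.57 FPKM. Apoc3, which slows lipoprotein clearance, was at 432 FPKM in WT and 79.9 in VEMD8, while Scarb1, the receptor of high density lipoprotein, was at 1.79 FPKM in WT and 13.5 in VEMD8 and Dgat2, of triglyceride synthesis, at 49.8 FPKM in WT and 155 in VEMD8. The list of 31 had 2 higher and 3 lower members and a median of -0.06, which was 0.19 with equal sums. Fatty acid oxidation and PPAR targets had 7 of 38 higher and 1 lower. Acadl, a dehydrogenase of long-chain acyl groups, was at 61.6 FPKM in WT and 337 in VEMD8, above the 276 FPKM of the next library. The lower member was Eci1, an isomerase for unsaturated fatty acids, at 70.97 FPKM in WT and 28.04 in VEMD8. The 24 genes of sugar handling had no common direction, with 3 higher, 4 lower and a median of 0.14. The gluconeogenic enzymes among them were lower, with Fbp1 at 20.5 FPKM in WT and 1.41 in VEMD8, Pck1 at 24.99 FPKM in WT and 2.88 in VEMD8 and G6pc at 4.24 FPKM in WT and 0.32 in VEMD8. No cholesterol synthesis gene of 24 was 2-fold from WT. VEMD8 was the highest library for 10 of the 24, such as Idi1 at 80.8 FPKM in WT and 101 in VEMD8, and for 10.2% of all genes.

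Drug oxidases and conjugating enzymes contained large differences of both signs. Cyp3a25 and Cyp3a11, oxidases of bile acids and drugs, were at 31.8 FPKM in WT and 0.51 in VEMD8 and at 34.03 FPKM in WT and 1.67 in VEMD8, and their relative Cyp3a44 at 0.24 FPKM in WT and 7.46 in VEMD8, higher than in any other library. These relatives resemble each other, so that single values are uncertain. Cyp1a1, the target of the aryl hydrocarbon receptor, was at 0.93 FPKM in WT and 21.6 in VEMD8, with 1.19 to 95.5 in the other knockouts. The 24 P450 genes had 2 higher, 6 lower and a median of -0.07, or 0.18 with equal sums and 0.0043 after scaling to the median gene. Of 46 glutathione and conjugation enzymes 6 were higher and 8 lower, with a median of -0.09, or 0.16 with equal sums. Gsta1, a glutathione transferase, was at 36.9 FPKM in WT and 404 in VEMD8, against 126, 111, 181 and 184 in VEMD2, VEMD3, VEMD4 and VEMD6. Sult6b2, a sulfotransferase, was at 1.61 FPKM in WT and 393 in VEMD8, against 1.13, 3.06, 10.3 and 171 in VEMD2, VEMD3, VEMD4 and VEMD6, so the high values were in VEMD6 and VEMD8. Papss2, which makes the sulfate donor used by such enzymes, was at 38.2 FPKM in WT and 601 in VEMD8. Among lower members Ugt1a1, which conjugates bilirubin, was at 69.3 FPKM in WT and 13.8 in VEMD8. Selenop, the selenium carrier protein, was at 646 FPKM in WT and 21.1 in VEMD8, against 138, 102, 104 and 96.05 in VEMD2, VEMD3, VEMD4 and VEMD6, and Dio1, a selenoenzyme that activates thyroid hormone, at 8.75 FPKM in WT and 0.21 in VEMD8. The other 18 selenoprotein genes tested were within 2-fold.

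Genes of the fetal and regenerative epithelium, which reappear in repair, were higher in 13 of 25 tested members and lower in none, and 9 further members did not pass the filter. Because Clu, Anxa1 and Ereg were under 1 FPKM in WT and passed through the knockouts, this count is a description only. Among the members expressed in WT, Ly6a, known as Sca-1, was at 37.3 FPKM in WT and 275 in VEMD8 with 162 to 1075 in the other knockouts, S100a11 at 109.8 FPKM in WT and 444 in VEMD8 with 272 to 983 in the other knockouts, and S100a6 at 28.5 FPKM in WT and 106 in VEMD8. All 3 were above WT in VEMD8 and inside the range of the other knockouts. Outside this list, Anxa10, a calcium-binding annexin of the stomach lining, was nearly absent in WT at 0.03 FPKM and at 39.5 in VEMD8. The AP-1 letters TGANTCA were found in 6 of 17 members of the fetal and regenerative list with a promoter (35.3%) and in 5.55% of tested genes. They were present in 36 of 372 higher genes (9.68%) and 34 of 442 lower genes (7.69%), so both directions held them more often than all tested genes.

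Ligands and feedback genes of the EGF receptor had 7 of 21 members higher, none lower and a median of 0.69, where 4.36% of all genes were higher. This list also holds Ereg, which passed the filter through the knockouts, so the count is a description only. A filter on VEMD8 and WT alone gave 6 of 20 higher, and a pseudocount of 5 FPKM gave 3 of 21. Areg, amphiregulin, was at 12.5 FPKM in WT and 64.2 in VEMD8, and Phlda1 at 13.5 FPKM in WT and 65.8 in VEMD8. The feedback phosphatase Dusp6 was at 20.6 FPKM in WT and 52.7 in VEMD8 and the feedback inhibitor Errfi1 at 11.4 FPKM in WT and 25.5 in VEMD8, whereas the receptors Egfr and Erbb2 were at 4.56 FPKM in WT and 4.87 in VEMD8 and at 27.01 FPKM in WT and 16.4 in VEMD8. Egr1, an immediate early gene, had a ratio of 1.59, while Fos and Junb lay at 0.04 and 0.48. Targets of YAP had no higher member among 19 and a median of 0.14.

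Heat shock genes had 5 of 21 members higher and none lower, with a median of 0.48. The inducible chaperone genes Hspa1a and Hspa1b are nearly identical, and together they came to 5.58 FPKM in WT and 94.2 in VEMD8, with 34.8 to 91 in the other knockouts. Hspa8, the constitutive form, was at 954 FPKM in WT and 1979.8 in VEMD8 and its cochaperone Hsph1 at 21.5 FPKM in WT and 94.5 in VEMD8. Hsp90ab1, Hspd1 and Hspe1, of the cytosol and mitochondria, were within 2-fold. Of 24 hypoxia and NRF2 genes 6 were higher and 1 lower, but only 1 was higher with a pseudocount of 5 FPKM. Among the 6 was Ero1a, an oxidase of disulfide formation, at 20.7 FPKM in WT and 59.4 in VEMD8. Nqo1, a standard NRF2 target, was at 29.8 FPKM in WT and 29.9 in VEMD8.

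Germline and embryonic genes were mostly silent. Of 26 measured, 19 stayed under the filter, and those that passed did so largely through the knockouts. Tex19.1, a retrotransposon restrainer of germ cells, was listed at 0 in WT and was at 19.9 FPKM in VEMD8, above the 15.99 of the next library. Khdc1a, of oocytes and early embryos, was at 0.16 FPKM in WT and 29.9 in VEMD8, and Stag3, a meiotic cohesin subunit, at 0.28 FPKM in WT and 2.81 in VEMD8. Partners of SETDB1 and other H3K9 enzymes had 1 of 30 members higher, the methyl-DNA binder Mbd1 at 13.4 FPKM in WT and 32.7 in VEMD8, and a median of -0.09, or 0.10 with equal sums. Atf7ip, which stabilises SETDB1 in the nucleus, was at 9.06 FPKM in WT and 18.3 in VEMD8, and Trim28, its recruiter, at 59.1 FPKM in WT and 39.4 in VEMD8.

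Some lists held many small differences below WT, where 6003 of all 10862 genes were below WT. All 77 cytosolic ribosomal protein genes were below WT, with a median of -0.63, but only 2 were 2-fold lower. Among them, Rpl34 was at 694 FPKM in WT and 285 in VEMD8 and its processed copy Rpl34-ps1 was listed at 0 in WT while VEMD8 had 279 FPKM. Summed, the pair went from 694 to 564 FPKM, a ratio of -0.30, so the call on Rpl34 depends on how reads were assigned. Nuclear-encoded oxidative phosphorylation genes were below WT in 74 of 76, with a median of -0.55 and only Cox7a1 2-fold lower, at 129 FPKM in WT and 42.3 in VEMD8. Proliferation genes were below WT in 34 of 38, with a median of -0.34 and 3 lower: Stmn1, a microtubule destabiliser, at 282 FPKM in WT and 85.2 in VEMD8, Tk1, thymidine kinase, at 50.2 FPKM in WT and 21.4 in VEMD8, and Gins1, of the replication helicase, at 17.1 FPKM in WT and 7.8 in VEMD8. The marker Mki67 was among the 4 above WT, at 37.5 FPKM in WT and 44.2 in VEMD8.

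**Figure D5:**
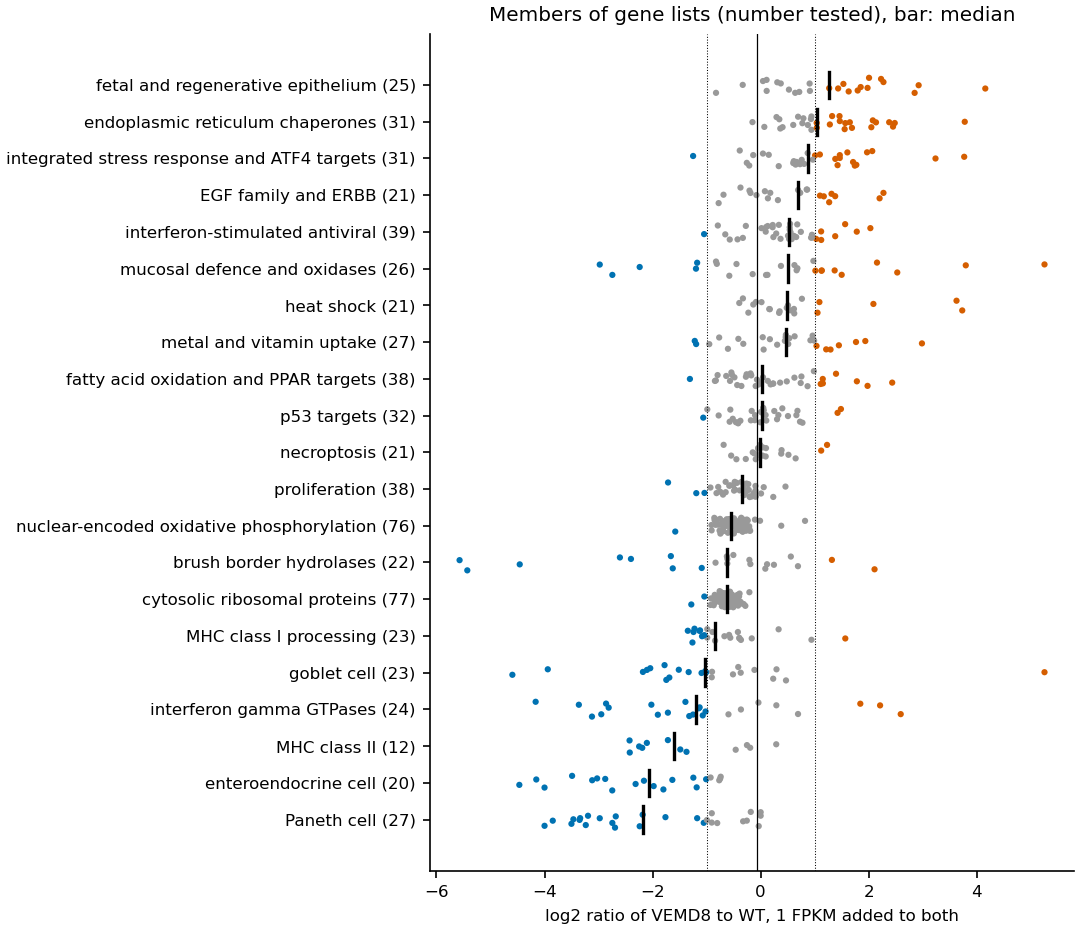
Log2 ratio of VEMD8 to WT with 1 FPKM added to both (horizontal) for each tested member of 21 gene lists (rows), with the number tested in brackets; orange points were at least 2-fold higher, blue points at least 2-fold lower, and each black bar is the median of its list. Medians run from 1.27 for the fetal and regenerative list to -2.18 for Paneth markers, those of p53 targets and necroptosis lie near 0, and that of necroptosis turns to 0.22 with equal sums.

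Stem cell markers had 1 of 25 members higher and 2 lower, with a median of -0.11, or 0.12 with equal sums. The higher member was Phgdh, the serine synthesis gene named above, at 17.8 FPKM in WT and 48.0 in VEMD8. Lgr5, the R-spondin receptor, was at 2.1 FPKM in WT and 0.32 in VEMD8, and the water channel Aqp1 at 39.9 FPKM in WT and 16.5 in VEMD8. Olfm4 and Smoc2 were at 574 FPKM in WT and 300.4 in VEMD8 and at 38.9 FPKM in WT and 20.1 in VEMD8, just within 2-fold, and Ascl2 at 3.55 FPKM in WT and 3.37 in VEMD8. Wnt targets had 4 of 19 lower and none higher, with a median of -0.05, or 0.14 with equal sums. The lower ones were Mmp7 and Lgr5, named above, with Ccnd1, cyclin D1, at 104 FPKM in WT and 33.2 in VEMD8 and Myc at 43.99 FPKM in WT and 18.2 in VEMD8. In the Notch list Hes1 was at 29.7 FPKM in WT and 14.3 in VEMD8 and the feedback gene Nrarp at 16.2 FPKM in WT and 5.44 in VEMD8.

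Few genes of cell death and DNA damage were called. Of 21 necroptosis genes 2 were higher and none lower, with a median of -0.01, or 0.22 with equal sums. Those 2 were Tnf and Tnfaip3. Ripk3, its central kinase, was at 40.8 FPKM in WT and 39.3 in VEMD8, Mlkl, the pore former, at 20.5 FPKM in WT and 32.6 in VEMD8, and Zbp1, which senses left-handed nucleic acid helices, at 64.8 FPKM in WT and 69.2 in VEMD8. The apoptosis list had 1 of 23 higher and a median of -0.11, or 0.13 with equal sums, and the DNA repair list 1 of 29 higher, Msh6, at 14.4 FPKM in WT and 32.97 in VEMD8, with a median of -0.15, or 0.06 with equal sums. Targets of p53 had 2 of 32 higher and 1 lower, with a median of 0.03. Cdkn1a, the cell cycle inhibitor p21, was at 87.6 FPKM in WT and 125 in VEMD8, below the 201 to 311 FPKM of the other knockouts, and Mdm2 at 15.7 FPKM in WT and 19.6 in VEMD8. In the list of gasdermins and inflammasome genes, 6 of 20 members were lower and only Il18 higher, with a median of -0.06, or 0.14 with equal sums. Gsdmc4, Gsdmc2 and Gsdmc3, similar gasdermins of differentiated cells, were at 82.5, 51.8 and 15.6 FPKM in WT, and in VEMD8 2 were listed at 0 and Gsdmc2 was at 0.06. Pycard, the adaptor ASC, was at 185 FPKM in WT and 60.1 in VEMD8.

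Set against all 5 other crypt libraries, VEMD8 stood at least 2-fold above every one in 23 genes (0.212% of those tested) and below every one in 25 (0.23%). The same counts were 68 and 62 for WT, 5 and 10 for VEMD2, 1 and 1 for VEMD3, 73 and 6 for VEMD4, and 53 and 26 for VEMD6. The genes above included 4 of stress response (Atf5, Chac1, Derl3 and Trib3), 5 of defence (Ccl20, Il18, Reg1, Reg3b and Reg3g) and the glycosyltransferase B3galt5, at 5.47 FPKM in WT and 45.4 in VEMD8. Cfhr2, a relative of complement factor H, was listed at 0 in WT and was at 33.2 FPKM in VEMD8, and no other library passed 0.96 FPKM. Triml2 was likewise listed at 0 in WT and was at 11.9 FPKM in VEMD8, with 2.1 FPKM as the next level. Those below included 6 hormone and granule genes (Cck, Chga, Ghrl, Gip, Sct and Sst) and 4 interferon gamma genes (Gbp2, Ido1, Iigp1 and Tgtp1). Pmp22, a myelin and junction protein, was at 116 FPKM in WT and 1.42 in VEMD8, against 26.1, 6.82, 11.4 and 6.18 in VEMD2, VEMD3, VEMD4 and VEMD6. Dnase1, the secreted nuclease, was at 195 FPKM in WT and 9.05 in VEMD8 with 26.4 to 71.96 in the other knockouts, and Srgn, the granule proteoglycan, at 18.9 FPKM in WT and 4.17 in VEMD8.

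VEMD6 was the knockout nearest to VEMD8. Across the tested genes, log2 values of VEMD8 correlated at 0.97 with VEMD6 and at 0.925 with WT, which describes these libraries only, since genes are not independent replicates. At least 2-fold differences between VEMD8 and VEMD6 were found in 157 genes upward (1.45%) and 241 downward (2.22%). The ATF4 list had 12 of 31 members higher in VEMD8 than in VEMD6 and none lower, with a median of 0.80, and the mucosal defence list 11 of 26 higher and 1 lower, with a median of 0.53. For the endoplasmic reticulum chaperones only 1 of 31 was 2-fold higher, Derl3, although the median was 0.44. Lower than in VEMD6 were 15 of 29 enterocyte markers with a median of -1.04, 12 of 22 brush border hydrolases with a median of -1.15, 14 of 24 interferon gamma genes with a median of -1.14 and 8 of 12 MHC class II genes with a median of -1.32. The median of all genes in this comparison was 0.18. Against WT, the enterocyte and hydrolase medians were 0.81 and 0.34 in VEMD6 and -0.19 and -0.62 in VEMD8. VEMD6 thus lay above WT for both lists. The interferon gamma and MHC class II medians to WT were -0.38 and -0.37 in VEMD6 and -1.20 and -1.60 in VEMD8.

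The remaining lists were mixed. Of 19 amino acid and peptide transporters 2 were higher and 4 lower, with a median of 0.11. Claudins, junction proteins and keratins had 3 of 41 higher and 1 lower, among them Cldn2, the pore-forming claudin of crypts, at 74.3 FPKM in WT and 166 in VEMD8. Actin and adhesion genes had 4 of 29 higher and 1 lower, with the actin-capping gene Capg at 7.98 FPKM in WT and 70.4 in VEMD8, immediate early genes 2 of 25 higher and 3 lower, and clock genes 1 of 13 higher and 2 lower. The Notch and secretory fate list had 1 of 18 higher and 3 lower, with a median of -0.44.

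Genes outside all lists were also among the largest differences. Gulo, of ascorbate synthesis in rodents, was at 2.2 FPKM in WT and 206 in VEMD8, the lectin receptor gene Cd209c at 12.3 FPKM in WT and 353 in VEMD8, and Zfp972, a zinc finger gene, at 11.2 FPKM in WT and 524 in VEMD8. Cd84, a receptor of the SLAM family, was at 2.41 FPKM in WT and 116 in VEMD8. Hmga1, an architectural chromatin protein, was at 231 FPKM in WT and 111 in VEMD8 with its near copy Hmga1b listed at 0 in WT while VEMD8 had 68.6 FPKM, and the sum of both had a ratio of -0.36. Of genes that mark other tissues, Lyve1, of lymphatic vessels, was at 2.26 FPKM in WT and 10.7 in VEMD8 and Gsn, gelsolin, at 7.76 FPKM in WT and 23.8 in VEMD8. The defining genes of those tissues, among them Pecam1 and Col3a1, stayed under 1 FPKM in both libraries.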

How the data were processed

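The data are FPKM values per gene of the 6 crypt libraries, deposited by the authors in a table for the whole series, with the unit per the file headers and values rounded to 2 decimals. Per the labels' protocols, RNA of flash-frozen crypts was extracted with Trizol and sequenced by the BGI-500 platform. HISAT2, featureCounts, edgeR and the builds GRCm38 and mm10 are named per the submitters' processing notes, without versions, and which of them made this table is not given in the sources used here. The table holds 20718 lines, of which 3760 carry no value. Symbols and coordinates came from RefSeq on GRCm38 by gene identifier, which named 16916 genes and left 42 unnamed. The stem cell samples were not analysed here.

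Python 3.11.15 with numpy 2.4.6, pandas 2.3.3 and matplotlib 3.10.9 was used. A pseudocount of 1 FPKM was added before log2 ratios were taken, and genes whose mean over the 6 libraries reached 1 FPKM were kept, 10847 of them with a symbol. Groups of 1 library allow neither a test nor an error, so a 2-fold difference is the only criterion. A gene under 1 FPKM in one library passed only through the others, so counts of list members that include such genes are a description only. The rule was tested on simulated data with genes altered by a known fold. The depth of a library was estimated from the spacing of low FPKM values times the length of the longest GENCODE transcript. In each library 52.5% to 55.7% of 947 to 1063 such values lay within 0.15 of a whole fragment, where 30% is the share without steps, so whole reads were not recovered and no count test was run. Transcript lengths used by the authors are not given in the sources used here. The fragment floors in the text cover counting error only.

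The comparison, the 62 gene lists and the rule for named genes were chosen with earlier results of these data known, and some genes stand in more than 1 list. The rule names Setdb1 and up to 8 members per list by the size of their ratio. From genes whose mean reached 5 FPKM it adds the 25 highest and 25 lowest ratios to WT and the 10 most extreme in each direction against all other libraries. Not all of these are reported, and some items are not reported here. Aars, Acacb, Agr2, Alg12, Anpep, Anxa1, Ascl2, Atf3, Atf4, Atf6, B2m, Canx, Cd79a, Cdh5, Cdkn1a, Cebpb, Col1a1, Col3a1, Cth, Dnajb11, Dnajb9, Dnajc3, Duox2, Duoxa2, Edem1, Egfr, Erbb2, Ern1, Ern2, Ero1b, Fos, Gars, Gbp10, Ghrl, H2-D1, H2-K1, Heph, Hmga1, Hnrnpa3, Hsp90ab1, Hspd1, Hspe1, Idi1, Ifit2, Igtp, Irf1, Irf8, Irgm1, Junb, Krt8, Lcn2, Manf, Mars1, Mdm2, Mgam, Mki67, Muc2, Neurod1, Nqo1, Nupr1, Pan2, Pdia6, Pecam1, Pigr, Pnliprp2, Psph, Ptprc, Reg3a, Reg4, Rfx5, Rfxank, Rfxap, Ripk3, Sars, Sct, Sel1l, Sis, Slc15a1, Slc5a1, Sox9, Spdef, Srgn, Syvn1, Trib3, Triml2, Vil1, Xbp1, Xlr3a and Zbp1 were chosen after their values were seen, as were the promoter motifs. Promoters came from RefSeq on GRCm38.p6, and motifs were searched on both strands over the 250 bases before the start, with each motif counted on its own whether or not it overlapped another. The alternatives were a pseudocount of 0.1 or 5 FPKM, no filter, a mean of at least 5 FPKM, a filter on VEMD8 and WT alone, and scaling to the median gene or to equal sums.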

Additional observations from a re-analysis of the deposited data

How the results depend on the processing

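No paired analysis was possible because there is only 1 library per group, which also means that no replicate could be left out. With a pseudocount of 5 FPKM the counts past 2-fold were 253 higher and 265 lower, and 12 above and 11 below all 5 other libraries. Equal sums gave 743 higher genes. A mean of at least 5 FPKM left 15 genes above all 5 others, and a pseudocount of 0.1 FPKM gave 57 below all 5. The other settings kept these counts within 1.5 times. With equal sums, 13 list medians turned sign: enterocyte 0.059, stem cell 0.12, sex-linked 0.15, fat absorption 0.19, ion transport 0.24, P450 0.18, glutathione 0.16, necroptosis 0.22, apoptosis 0.13, gasdermins 0.14, DNA repair 0.058, Wnt targets 0.14 and SETDB1 partners 0.10. Scaling to the median gene turned ion transport to 0.065 and P450 to 0.0043. Without the filter the tuft cell median was -0.25. A mean of at least 5 FPKM turned fat absorption to 0.22 and YAP targets to -0.072, and a filter on VEMD8 and WT alone turned fat absorption to 0.08. Beyond these settings' own construction, the cause was not tested. With a pseudocount of 5 FPKM the counts of higher members fell to 9 of 31 for ATF4 targets, 1 of 24 for hypoxia and NRF2, 3 of 38 for fatty acid oxidation, 3 of 27 for metal uptake, 4 of 39 for antiviral genes, 3 of 23 for cytokines, 3 of 21 for EGF genes and 2 of 7 for germline genes, and those of lower members to 3 of 16 for ileum genes, 3 of 24 for ion transport and 5 of 46 for glutathione enzymes. With equal sums, glutathione enzymes had 10 of 46 higher, and 3 ileum, 3 ion transport, 2 MHC class I and 3 mucosal defence genes were lower. A mean of at least 5 FPKM left 4 of 32 fatty acid oxidation, 4 of 20 metal uptake and 2 of 19 hypoxia genes higher. The enteroendocrine median ran from -3.10 to -1.01, the fetal and regenerative one from 0.58 to 1.88 and the germline one from 0.071 to 4.39, the Paneth median was -1.40 with a pseudocount of 5 FPKM, and the leukocyte median was -0.97 with a mean of at least 5 FPKM. Of the 424 genes that the rule names, 106 ratios moved by more than 1.5 times on the linear scale with a pseudocount of 5 FPKM and 72 with one of 0.1 FPKM. No ratio of at least 2-fold among the 424 genes that the rule names changed sign, but these settings could not have turned one. A pseudocount or a filter keeps the sign of a ratio. Scaling moved the median of all genes only from -0.06 to 0.16 at most. The unchanged signs therefore say nothing about how firm these differences are. All depends on 1 library per group, so differences between mice, and between VEMD8 and WT by handling, cannot be told apart from those of genotype.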
